A study of Mus musculus with 15 samples.

Results

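The genes described here are 177 mouse genes named Zfp and a number, most of them known or predicted to encode zinc finger proteins. They were chosen by name and by measured level, as probe sets annotated to 1 such symbol, with the mRNA decay factor Zfp36 left out, with 1 probe set per gene (that with the highest mean over all arrays) and a mean log2 signal of at least 6 in at least 1 group of arrays. Of 304 Zfp symbols on the arrays, 177 passed. Of the 127 that did not, 87 had group means under 4 throughout. The level that chose the genes is measured in the same arrays as the changes below, so counts over the 177 are descriptions. The genes just inside that level were Zfp708 (6.05), Zfp953 (6.13) and Zfp647 (6.14), and those just outside were Zfp60 (5.86), Zfp61 (5.98) and Zfp963 (5.99).

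The study measured expression with 15 Affymetrix arrays in lymphocytes from the spleen of B6x129 mice, 3 arrays per group. B cells were taken at 0 h or after 4 h with 25 ug/ml lipopolysaccharide (LPS), a bacterial activator of Toll-like receptor 4. T cells were taken at 0 h, or after 7.5 ug/ml concanavalin A (ConA) for 4 h or 14 h; ConA is a lectin that activates T cells through surface glycoproteins. The series title asks whether Myc amplifies expressed genes in general. Because cells cultured without either agent were not among the groups, agent and culture cannot be told apart. The labels do not say whether the 3 samples of a group came from separate animals or cultures, so p-values measure the spread between these samples, which may be technical. Values are log2 signals, and a change of 1 is 2-fold. The same 100 ng of RNA was labelled from each sample and arrays were put on a common scale, so these values do not show RNA per cell. In bulk RNA, fewer cells of a type and less RNA per cell cannot be told apart.

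Proteins of this kind fold short loops around zinc through pairs of cysteines and histidines and read DNA with arrays of such fingers. Many carry a KRAB domain, which recruits Trim28 and through it the histone methyltransferase Setdb1 and heterochromatin proteins, and silence transposable elements and imprinted genes. The KRAB genes lie in tandem clusters that expanded by duplication. The Zfp symbol also covers proteins best known for other work, among them ribosome assembly, RNA binding and the mitotic spindle, so the symbol alone does not make a gene a transcription factor. Protein sequences were not used here, so fingers and KRAB domains were not counted.

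The promoter windows of 4 genes whose signal rose by 2-fold or more in at least 1 cell type are shown because they include the neighbours with the largest rises in T cells at 4 h (Zfp52, Zfp948) and 2 of the 3 genes with the largest rises after LPS in B cells (Zfp296, Zfp202). Each runs from 250 bases before to 50 after the gene's start, from RefSeq on GRCm38.p6, 5′ to 3′ along the gene. All 4 lie on the plus strand: Zfp52 at chr17:21535289-21535588, Zfp948 at chr17:21566728-21567027, Zfp296 at chr7:19577037-19577336 and Zfp202 at chr9:40192066-40192365. Capitals mark the motifs CACGTG and CCGGAAG (on either strand) where they occur.
Zfp52: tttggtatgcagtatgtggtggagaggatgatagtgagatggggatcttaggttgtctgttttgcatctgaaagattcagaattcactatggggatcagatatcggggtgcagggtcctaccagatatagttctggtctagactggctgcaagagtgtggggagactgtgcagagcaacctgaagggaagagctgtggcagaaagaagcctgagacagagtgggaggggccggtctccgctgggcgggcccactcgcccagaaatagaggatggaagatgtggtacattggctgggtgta
Zfp948: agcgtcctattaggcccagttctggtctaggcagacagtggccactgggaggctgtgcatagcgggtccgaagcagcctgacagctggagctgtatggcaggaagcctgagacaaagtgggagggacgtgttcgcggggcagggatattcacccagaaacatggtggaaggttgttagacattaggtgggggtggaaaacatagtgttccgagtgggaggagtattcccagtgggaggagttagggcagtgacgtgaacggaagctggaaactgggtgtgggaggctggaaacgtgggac
Zfp296: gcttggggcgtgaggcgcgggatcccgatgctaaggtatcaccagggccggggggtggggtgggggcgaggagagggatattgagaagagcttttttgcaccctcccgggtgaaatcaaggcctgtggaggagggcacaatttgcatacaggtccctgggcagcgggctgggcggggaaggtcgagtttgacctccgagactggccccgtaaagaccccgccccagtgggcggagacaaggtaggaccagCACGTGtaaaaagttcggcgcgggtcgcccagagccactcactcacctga
Zfp202: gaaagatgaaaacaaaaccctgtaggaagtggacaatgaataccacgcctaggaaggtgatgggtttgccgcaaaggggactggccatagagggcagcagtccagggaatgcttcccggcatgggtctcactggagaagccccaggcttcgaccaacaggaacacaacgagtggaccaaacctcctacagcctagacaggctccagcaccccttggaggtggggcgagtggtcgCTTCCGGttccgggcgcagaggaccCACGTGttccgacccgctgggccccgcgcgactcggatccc
The windows of Zfp52 and Zfp948 held none of the 3 motifs searched, that of Zfp296 held CACGTG, and that of Zfp202 held CACGTG and CCGGAAG.

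The genes kept differed in how far their signal moved over the 5 groups. The range of the 5 group means had a median of 1.33 over the 177 genes, against 1.61 over the 8488 genes on the arrays with a group mean of at least 6. It was over 1 in 124 genes, over 2 in 48 and under 0.5 in 15. All 5 group means reached 6 in 120 genes, while 57 fell under 6 in some group, 9 reached it in 1 group alone and 8 had a group mean under 4. The 9 were Zfp296, Zfp202 and Zfp455 (B cells after LPS), Zfp608 (B cells at 0 h), Zfp40, Zfp626, Zfp647 and Zfp708 (T cells at 0 h) and Zfp953 (T cells at 14 h), and their differences from that group are descriptions, since that group made them members. The lowest group mean was that of B cells after LPS in 89 of the 177 (50.3%, against 36.7% of the 8488). The highest was that of T cells at 0 h in 57 (32.2% against 24.0%) and of T cells at 4 h in 40 (22.6% against 14.0%). These ranks set B cell against T cell arrays and are given for the deposited scaling alone. Differences between the cell types depended on the scaling, as given below for 0 h.

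The 10 genes with the highest mean signal were Zfp445, Zfp622, Zfp52, Zfp207, Zfp871, Zfp131, Zfp106, Zfp263, Zfp281 and Zfp91. Zfp622, whose human counterpart acts in late maturation of the large ribosomal subunit, lay between 10.98 and 11.39 on all 15 arrays. Its group means spanned 0.19, and of the 177 genes only Zfp628 spanned less (0.14, from 6.46 ± 0.02 to 6.60 ± 0.15, SD, n = 3). Zfp46 (0.26), Zfp346 (0.29) and Zfp35 (0.34) were the next steadiest. At the other end, Zfp296 spanned 5.35, from 3.05 ± 0.02 in T cells at 0 h to 8.40 ± 0.07 in B cells after LPS. These spans are those of the brightest probe sets. On the second brightest, group means lay between 8.94 and 9.47 for Zfp622 and between 3.55 and 5.92 for Zfp346.

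**Figure D1:**
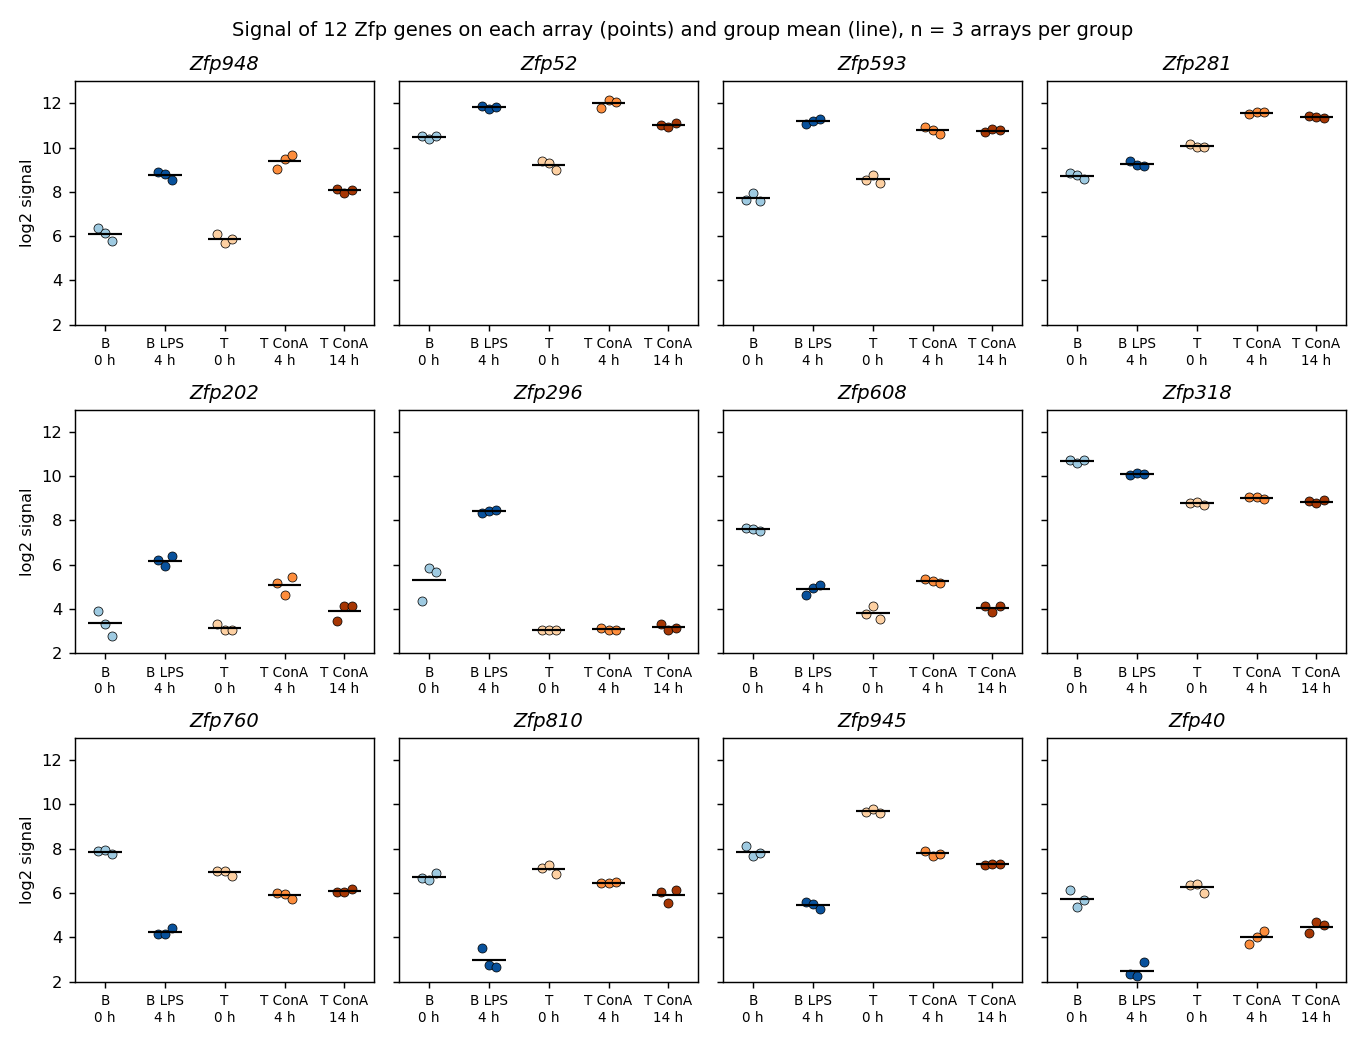
Log2 signal of 12 Zfp genes on each array (points) with the group mean (line), 3 arrays per group, for B cells at 0 h and after LPS and T cells at 0 h and after ConA for 4 h and 14 h. Zfp948, Zfp52 and Zfp593 rise in both cell types, Zfp296 stands above 8 in LPS-treated B cells and near 3 in all T cell arrays, and Zfp760, Zfp810 and Zfp40 are lowest after LPS.

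The first comparison asked how the genes responded to LPS in B cells. More Zfp genes fell than rose: 88 of 177 (49.7%) were called lower and 49 (27.7%) higher at an adjusted p under 0.05, and 40 were not called. Over all 9045 genes tested, 42.3% were called lower and 37.6% higher, 79.9% in all. The median change was -0.27 over the Zfp genes and -0.05 over all genes tested. Falls of 2-fold or more (48) outnumbered such rises (20). Among the 153 members whose mean over the 15 arrays was at least 6, 72 fell and 45 rose.

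Zfp593, whose yeast relative acts in export of the large ribosomal subunit, had signals of 7.65, 7.95 and 7.60 on the B cell arrays at 0 h and 11.08, 11.20 and 11.29 after LPS. Every LPS array lay above every 0 h array, and the rise was 3.46 ± 0.12 (SE), or 11.0-fold, with a limma adjusted p of 3.15e-12. Zfp296, a factor that promotes reprogramming to pluripotency, read 4.38, 5.83 and 5.65 at 0 h and 8.32, 8.43 and 8.45 after LPS. Its 0 h arrays were spread over more than 1 log2 unit, and the LPS arrays stood clear of them (3.11 ± 0.26). Zfp202, known as a repressor of lipid metabolism genes, went from 3.92, 3.33 and 2.79 to 6.21, 5.94 and 6.38. Its 0 h mean of 3.35 ± 0.57 (SD) is near the floor of the deposited values, 2.24, so the rise of 2.83 ± 0.28 (SE) may understate the change. Both Zfp296 and Zfp202 were members only through the LPS arrays. Zfp948 rose by 2.65 ± 0.17, Zfp566 by 2.32 ± 0.16 and Zfp827, which brings the NuRD complex to telomeres, by 2.16 ± 0.11.

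The largest falls took genes to a low signal. Zfp810 read 6.68, 6.58 and 6.90 at 0 h and 3.50, 2.77 and 2.65 after LPS. Zfp760 read 7.89, 7.94 and 7.75 and then 4.14, 4.15 and 4.41. In both genes the groups were separated by more than 3 log2 units, with changes of -3.75 ± 0.20 and -3.63 ± 0.10 (adjusted p = 4.07e-10 and 4.81e-13). Zfp40 fell from 6.16, 5.38 and 5.67 to 2.36, 2.24 and 2.89, where 1 array lay at the floor, a change of -3.24 ± 0.23 that understates the fall. Zfp692 fell by 3.08 ± 0.17, from 7.69 ± 0.07 to 4.61 ± 0.32 (SD, n = 3), and Zfp946 by 2.56 ± 0.10. Zfp608, which has been linked to repression of the Rag genes in thymocytes, read 7.65, 7.62 and 7.50 at 0 h and 4.63, 4.96 and 5.08 after LPS, a fall of 2.71 ± 0.14. It was a member only through the B cell arrays at 0 h, so its differences from that group are descriptions.

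Signals of other cell types moved in the same arrays, and their part in these results was not tested. The mean log2 signal over 7 monocyte, macrophage and neutrophil markers was 7.30 to 7.36 on the B cell arrays at 0 h and 4.20 to 4.33 after LPS, with 4 of the 7 under 4 after LPS. That over 5 erythroid markers went from between 9.49 and 9.62 to between 7.92 and 8.14, and none was under 4. The 9 T cell markers averaged 2.99 to 3.37 on the B cell arrays, 8 of the 9 being under 4 before and after LPS. The 8 B cell markers found on the arrays went from between 12.65 and 12.69 to between 10.67 and 10.86.

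In T cells after 4 h with ConA fewer Zfp genes were called, and most changes were small. A total of 35 (19.8%) rose and 55 (31.1%) fell, while 87 were not called. Over all genes tested, 33.4% rose and 32.5% fell, 65.9% in all. The median change was -0.06 over the Zfp genes and 0.00 over all genes, 7 genes rose and 9 fell by 2-fold or more. Of the 153 with a mean of at least 6, 30 rose and 46 fell.

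Zfp948 had the largest rise at 4 h among the 177 genes. It read 6.10, 5.67 and 5.86 at 0 h and 9.05, 9.50 and 9.68 after 4 h, a rise of 3.53 ± 0.17 or 11.6-fold (adjusted p = 6.67e-10). Its neighbour Zfp52 read 9.38, 9.31 and 8.98 and then 11.80, 12.15 and 12.07, a rise of 2.78 ± 0.11. The arrays of the groups stood far apart for both genes, and both also rose after LPS in B cells, Zfp52 from 10.51, 10.40 and 10.51 to 11.87, 11.75 and 11.83. Zfp593 went from 8.55, 8.78 and 8.40 to 10.91, 10.80 and 10.62 (2.20 ± 0.12). Zfp202 rose from the floor region, 3.32, 3.04 and 3.04, to 5.16, 4.62 and 5.46 (1.95 ± 0.28). Zfp281, a regulator of Nanog in pluripotent cells, went from 10.14, 10.04 and 10.01 to 11.50, 11.60 and 11.61, a rise of 1.51 ± 0.08 with arrays that agreed closely.

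Zfp40 and Zfp945 led the falls at 4 h. Zfp40 read 6.38, 6.42 and 6.02 at 0 h and 3.71, 4.03 and 4.28 at 4 h (-2.26 ± 0.23). It was a member only through T cells at 0 h, so its falls from that group at 4 h and 14 h are descriptions. Zfp945 read 9.66, 9.80 and 9.62 and then 7.92, 7.68 and 7.77 (-1.90 ± 0.12). No array of a 4 h group reached the 0 h arrays in either gene. Zfp692 fell by 1.84 ± 0.17, Zfp386 by 1.78 ± 0.15, Zfp652 by 1.66 ± 0.22 and Zfp287 by 1.59 ± 0.13.

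After 14 h with ConA, 21 Zfp genes (11.9%) were above and 69 (39.0%) below their 0 h signal, and 87 were not called. The shares over all genes tested were 36.6% and 31.9%, 68.4% in all, and the median change was -0.13 over the Zfp genes and 0.03 over all genes. Of the 153 with a mean of at least 6, 17 rose and 60 fell. Zfp948 (2.18 ± 0.17), Zfp593 (2.18 ± 0.12), Zfp52 (1.79 ± 0.11), Zfp239 (1.53 ± 0.23), Zfp281 (1.31 ± 0.08) and Zfp719 (1.03 ± 0.16) had the largest rises. Zfp945 (-2.38 ± 0.12), Zfp652 (-1.97 ± 0.22), Zfp40 (-1.79 ± 0.23), Zfp946 (-1.72 ± 0.10), Zfp287 (-1.69 ± 0.13) and Zfp386 (-1.49 ± 0.15) had the largest falls. This comparison and that at 4 h use the same 3 arrays at 0 h, so a shift in those arrays would enter both.

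Between 4 h and 14 h, 17 Zfp genes (9.6%) rose, 51 (28.8%) fell and 109 were not called, where 27.4% of all genes rose and 21.5% fell, 48.9% in all. Zfp239 had the largest rise: its arrays read 4.58, 5.30 and 4.61 at 0 h, 5.11, 4.82 and 4.59 at 4 h and 6.35, 6.36 and 6.36 at 14 h. The first 6 arrays overlapped and the last 3 lay above them, with a change of 1.52 ± 0.23 from 4 h to 14 h (adjusted p = 1.25e-04). Zfp367 rose by 1.11 ± 0.13, Zfp710 by 1.07 ± 0.15 and Zfp667 by 0.81 ± 0.21. Zfp948, high at 4 h, read 8.13, 7.97 and 8.09 at 14 h, a fall of 1.35 ± 0.17 from 4 h that left it above 0 h. Zfp783 fell by 1.31 ± 0.18, Zfp608 by 1.21 ± 0.14 and Zfp202 by 1.16 ± 0.28. Zfp593 held its level, with 10.68, 10.83 and 10.77 at 14 h against 10.91, 10.80 and 10.62 at 4 h (-0.02 ± 0.12, adjusted p = 0.927).

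Signals of other cell types moved through the T cell series too. The mean over 5 erythroid markers was 7.36 to 7.44 at 0 h, 5.03 to 5.05 at 4 h and 4.29 to 4.57 at 14 h, with 1, 3 and 2 markers under 4. That over 3 NK cell markers was 8.56 to 8.77, 7.39 to 7.63 and 7.64 to 7.72, with Ncr1 under 4 in each group. That over 7 monocyte, macrophage and neutrophil markers was 4.25 to 4.54, 4.88 to 4.99 and 3.13 to 3.27, with 4, 4 and 5 under 4. Within that list the neutrophil genes S100a8 and S100a9 went from 7.48 and 6.20 to 10.19 and 8.65 at 4 h and 4.67 and 2.65 at 14 h. Lyz2 went from 7.16 to 6.18 and 5.68, and Csf1r, Adgre1, Itgam and Cd14 were under 4 in each T cell group. The 8 B cell markers averaged 4.1 to 4.43, 4.89 to 5.0 and 4.25 to 4.3, with 4, 3 and 4 under 4. Among them Cr2 went from 3.09 to 6.32 and 2.53, Fcer2a from 4.2 to 6.08 and 5.71, and Ms4a1 from 6.08 to 7.03 and 6.6. Cd79b went from 7.65 to 7.11 and 6.9 and Cd22 from 5.18 to 4.96 and 4.8. Cd79a, Pax5 and Blk were under 4 in each T cell group. The 9 T cell markers averaged 12 to 12.04, 10.75 to 10.94 and 11.17 to 11.19. The part of these signals in the T cell results was not tested. On T 0 h replicate 2 and T ConA 4 h replicate 1 the 3′ signal of the dap spike-in exceeded its 5′ signal by 4.59 and 5.94, against 1.82 to 2.67 on the other T cell arrays. For actin, in the sample's own RNA, this difference was 0.39 to 0.49 at 0 h, 0.56 to 0.91 at 4 h, highest on replicate 1, and 0.62 to 0.64 at 14 h. Without these 2 arrays 37 Zfp genes rose and 49 fell at 4 h, 24 rose and 61 fell at 14 h, and 19 rose and 48 fell between 4 h and 14 h.

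**Figure D2:**
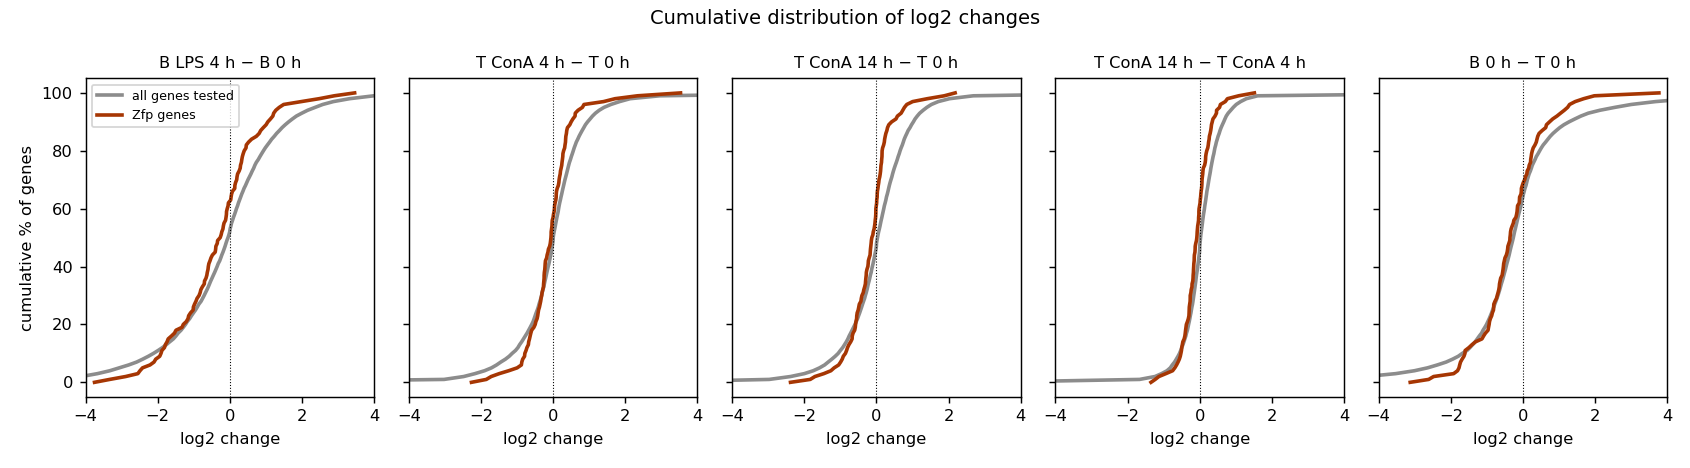
Cumulative share of genes (vertical axis, percent) with a log2 change at or below the value on the horizontal axis, for the 177 Zfp genes and all 9045 genes tested, in 5 comparisons. The Zfp curve lies above that of all genes to the right of 0 in each panel, and its median after LPS is -0.27 against -0.05.

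At 0 h, 89 Zfp genes (50.3%) were lower and 39 (22.0%) higher in B than in T cells, near the shares over all genes tested (51.1% and 25.5%, 76.6% in all). This split depended on the scaling between arrays: with the array medians set equal, 56 were higher and 71 lower, and with cyclic loess, 60 and 68. Those scalings moved the median difference of all genes by 0.25 and 0.24. The preparations also differed in markers of other cells, whose part was not tested: NK cell markers averaged 3.68 to 3.97 in B and 8.56 to 8.77 in T cells, monocyte, macrophage and neutrophil markers 7.30 to 7.36 and 4.25 to 4.54, and erythroid markers 9.49 to 9.62 and 7.36 to 7.44. Zfp318, which is needed for IgD on mature B cells, read 10.72, 10.57 and 10.71 in B cells and 8.78, 8.83 and 8.70 in T cells. The cell types were far apart, by 1.90 ± 0.07 (adjusted p = 4.33e-12). Zfp608 read 7.65, 7.62 and 7.50 in B cells and 3.77, 4.14 and 3.56 in T cells, a difference of 3.77 ± 0.14 that nearness to the floor may compress. Those B cell arrays made Zfp608 a member, so this difference is a description. Zfp296 was higher in B cells by 2.24 ± 0.26 and Zfp839 by 1.79 ± 0.10.

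Zfp579, Zfp287, Zfp949 and Zfp623 were the genes furthest below their T cell signal in B cells. Zfp579 read 4.51, 4.60 and 3.75 in B cells and 7.52, 7.66 and 7.08 in T cells (-3.13 ± 0.21). Zfp287 lay at 5.74 ± 0.11 and 8.42 ± 0.10 (SD, n = 3), Zfp949 at 4.19 ± 0.13 and 6.78 ± 0.10, and Zfp623 at 4.80 ± 0.68 and 7.37 ± 0.08. The adjusted p-values of these 4 differences lay between 1.63e-10 and 4.48e-06.

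The responses at 4 h could be set side by side because the B and T cell comparisons share no array. In both cell types 22 genes rose (44.9% of those that rose in B cells and 62.9% of those in T cells) and 47 fell (53.4% and 85.5%). Over all genes tested these shares were 64.3% and 72.3% for rises and 57.5% and 74.8% for falls. Of the other genes, 60 were called in B cells alone, 13 in T cells alone, 27 in neither and 8 in opposite directions. A test of the difference between the responses called 29 genes (16.4%) with the change in B cells above that in T cells and 80 (45.2%) with it below, against 31.3% and 34.8% of all genes tested, 66.1% in all.

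Among the 8 genes called in opposite directions, Zfp51, Zfp827 and Zfp982 rose in B cells and fell in T cells, and Zfp318, Zfp429, Zfp608, Zfp715 and Zfp953 fell in B cells and rose in T cells. Zfp608 had the widest gap. It fell in B cells, and in T cells it went from 3.77, 4.14 and 3.56 to 5.35, 5.24 and 5.16 at 4 h and back to 4.14, 3.85 and 4.14 at 14 h. The difference between its responses was -4.13 ± 0.20. On the same T cell arrays the B cell markers averaged 4.1 to 4.43 at 0 h, 4.89 to 5.0 at 4 h and 4.25 to 4.3 at 14 h. Their part in the T cell signal of Zfp608 was not tested. Zfp827 read 5.14, 5.00 and 5.09 in B cells at 0 h and 7.30, 7.42 and 6.98 after LPS, and in T cells 6.73, 6.97 and 6.62 and then 6.34, 6.15 and 6.26. The responses differed by 2.68 ± 0.16. Zfp318 fell in B cells by 0.59 ± 0.07 and rose in T cells by 0.25 ± 0.07, and stayed higher in B cells than in T cells in each group.

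**Figure D3:**
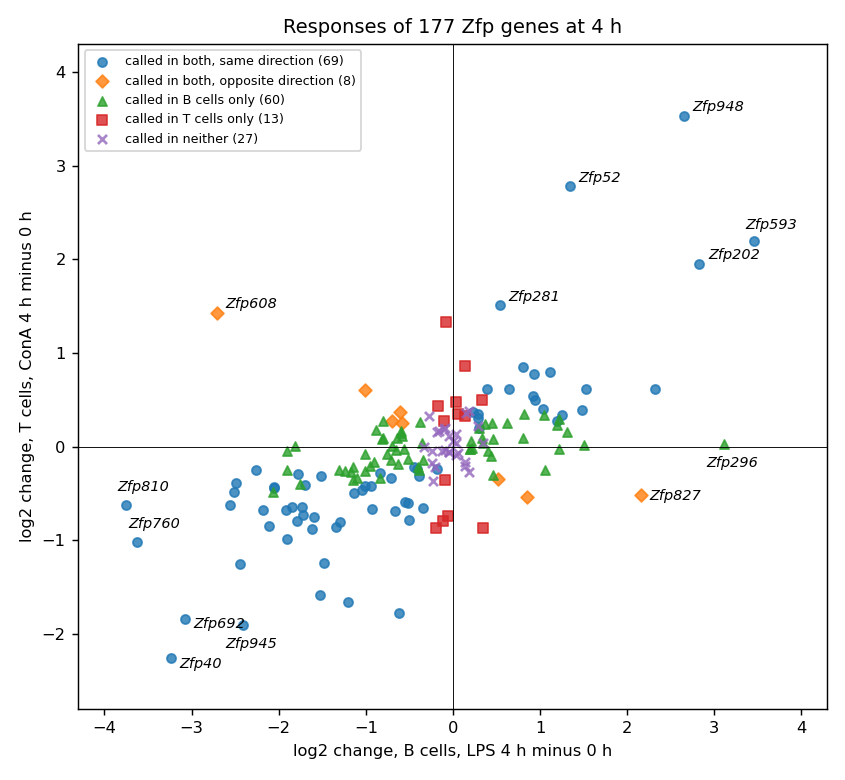
Log2 change of each of the 177 Zfp genes after 4 h with LPS in B cells (horizontal axis) against that after 4 h with ConA in T cells (vertical axis), with the symbol showing in which comparison the gene was called. The 22 genes that rose and 47 that fell in both lie in the upper right and lower left, and Zfp608 stands apart in the upper left.

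Genes with known work in RNA, ribosomes or the spindle included Zfp593. Of 9 tested, 5 rose and none was called lower after LPS, 4 rose and none was called lower at 4 h with ConA (limma, with 0 lower at an unadjusted p under 0.05 in both), and 3 rose and 1 fell at 14 h. Over all genes tested, 37.6% rose and 42.3% fell after LPS, 33.4% and 32.5% at 4 h, and 36.6% and 31.9% at 14 h, shares that serve for the counts of the other lists too. Zfp598, a ubiquitin ligase that marks collided ribosomes, rose by 1.48 after LPS (7.54 to 9.02) and by 0.39 at 4 h with ConA. Zfp106, an RNA-binding protein, rose by 1.25 after LPS and 0.34 at 4 h. Zfp330, a nucleolar protein, rose by 0.39 and 0.62, and Zfp830 rose by 0.35 after LPS. Zfp346, which binds double-stranded RNA, fell by 0.23 at 14 h, and Zfp326, a partner of RNA polymerase II in splicing, was called in none of the activation comparisons. Zfp207, a spindle protein that binds Bub3, rose by 0.85 at 14 h on its brightest probe set, while its second probe set fell.

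The 11 tested genes on the list of promoter and chromatin factors went both ways after LPS, with 4 higher and 5 lower. The falls were the larger: Zfp592, an associate of the chromatin reader Zmynd8, fell by 2.05, Zfp292 by 1.79 and Zfp217, a subunit of corepressor complexes, by 1.73. Zfp687, another Zmynd8 associate, fell by 0.67 and Zfp148 by 0.34. All 5 also fell at 4 h with ConA, by 0.44 to 0.79, while Zfp131 and Zfp384 rose by 0.31 and 0.33. Zfp219 rose by 1.31 after LPS and by 0.74 at 14 h with ConA. Zfp410, an activator of the chromatin remodeller gene Chd4, was not called in any activation comparison, with changes of -0.13, -0.05 and -0.02.

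Of 6 tested genes with lymphocyte roles, 1 rose and 4 fell after LPS. At 4 h with ConA, Zfp281 (1.51), Zfp608 (1.43) and Zfp318 (0.25) rose, Zfp335 and Zfp91 fell, and Zfp110 was not called. Zfp335, needed for T cell maturation, fell by 1.6 after LPS and by 0.75 and 0.70 at 4 h and 14 h with ConA. Zfp110, a partner of the p75 neurotrophin receptor, fell by 0.56 after LPS. Zfp91, a ubiquitin ligase in noncanonical NF-kappaB signalling, changed by -0.09 after LPS, which was not called, and fell by 0.36 and 0.55 in T cells. Its second brightest probe set went from 8.66 to 9.23 after LPS. In T cells that probe set read 9.1 at 0 h, 9.17 at 4 h and 8.78 at 14 h. Of 5 tested imprinting and repeat silencing genes, 2 rose and 2 fell after LPS. Zfp445, which maintains imprints, fell from 11.86 to 11.10, and Zfp568, a repressor of a placental Igf2 transcript, rose by 1.53 after LPS and 0.61 and 0.58 in T cells. Zfp809, which silences retroviruses, changed by -0.09, 0.20 and 0.26 and was called at 14 h alone.

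The partners through which KRAB proteins silence were counted from a list of 23 genes, of which 20 were tested. After LPS 8 rose and 6 fell, at 4 h with ConA 6 rose and 8 fell, and at 14 h 5 rose and 5 fell. The shares over all genes given above were 37.6% and 42.3%, 33.4% and 32.5%, and 36.6% and 31.9%, and the difference from them was not tested. Trim28 rose from 10.20 to 11.38 after LPS (1.18 ± 0.07) and by 0.49 and 0.54 in T cells. Setdb1 rose by 1.18 ± 0.10 after LPS and was not called in T cells (0.10 and 0.18). Among subunits of the HUSH silencing complex, Pphln1 rose by 1.90 and Tasor fell by 1.02 after LPS, and Mphosph8 was not called (-0.11). Morc2a, which acts with this complex, rose by 2.03 after LPS. Atf7ip, the partner that stabilizes Setdb1, fell by 1.19 after LPS and by 1.16 and 1.44 in T cells. The maintenance methyltransferase Dnmt1 fell by 1.23 after LPS and by 1.30 and 0.62 in T cells.

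Other zinc finger families with symbols Zbtb, Zscan or Zkscan and a number served for comparison. Of 43 tested genes, 16 rose and 19 fell after LPS, 13 rose and 15 fell at 4 h with ConA, and 11 rose and 15 fell at 14 h. The difference between these families and the Zfp genes was not tested.

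The genes lay on many chromosomes, with 36 on chromosome 7, 30 on chromosome 17, 16 on chromosome 13 and 12 each on chromosomes 6 and 8. On chromosome 17, 20 of 30 fell and 8 rose after LPS (median -0.98), 15 fell and 5 rose at 4 h with ConA, and 18 fell and 2 rose at 14 h. After LPS, 49.7% of all 177 members fell and 27.7% rose, and over all genes tested 42.3% and 37.6%. At 4 h these shares were 31.1% and 19.8% of the members and 32.5% and 33.4% of all genes, and at 14 h 39.0% and 11.9%, and 31.9% and 36.6%. Members with gaps of at most 500 kb formed 7 runs of 4 or more. The longest held 18 genes on chromosome 17, from Zfp160 to Zfp213. After LPS 13 of them fell and 5 rose (median -1.44), and all 18 were called. At 4 h with ConA 11 fell and Zfp52 and Zfp948 rose, and at 14 h 13 fell and the same pair rose. In the other runs the numbers that fell and rose after LPS were 5 and 2 of 9 on chromosome 13, 6 and 2 of 8 in the second run on chromosome 17, 3 and 2 of 6 on chromosome 6, 3 and 3 of 8 and 2 and 2 of 5 on chromosome 7, while 2 of 4 on chromosome 8 fell and the other 2 were not called.

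Within the 18-gene run, 10 genes in a row, from Zfp760 to Zfp40, fell after LPS, by 1.15 to 3.63. This stretch was picked after its values were seen and is given as a description. In T cells 9 of the 10 fell at 4 h, with Zfp942 not called (-0.36 ± 0.18, adjusted p = 0.0971), and 9 fell at 14 h, with Zfp944 not called (-0.23 ± 0.10, adjusted p = 0.0512). Among members, Zfp52 and Zfp948, which rose in both cell types, come directly before this stretch. Zfp213, the next member after it, rose by 1.5 ± 0.15 after LPS. In T cells Zfp213 had changes of 0.02 and 0.29, neither called. At 0 h 4 of the 10 were higher and 4 lower in B than in T cells, so the stretch did not move together between the resting cell types.

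**Figure D4:**
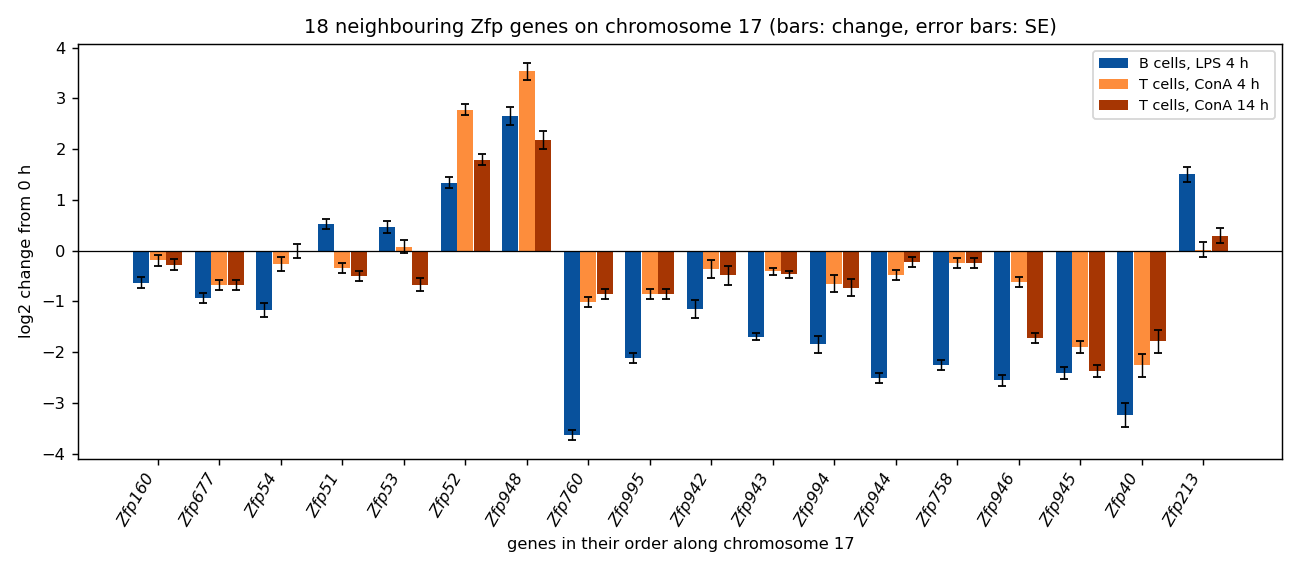
Log2 change from 0 h (bars, with standard errors) of the 18 Zfp members of the longest run, in their order along chromosome 17. Changes are after LPS in B cells and after 4 h and 14 h with ConA in T cells. Zfp52 and Zfp948 rise in all 3 comparisons, and the 10 genes from Zfp760 to Zfp40 lie below 0, by up to 3.63 in B cells.

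Promoter windows in this run were mostly unlike, and the closest pair was near-identical. Windows were found for 16 of the 18 genes, and over their 120 pairs the identity of aligned windows had a median of 49.55% and a range from 44.2% to 94.8%. The closest pair, shown for its identity, was Zfp943 (chr17:21962309-21962608) and Zfp758 (chr17:22361213-22361512), both on the plus strand. Capitals mark letters with no identical partner in the alignment, 8 in each window. Both windows hold CACGTG, which is in small letters here.
Zfp943: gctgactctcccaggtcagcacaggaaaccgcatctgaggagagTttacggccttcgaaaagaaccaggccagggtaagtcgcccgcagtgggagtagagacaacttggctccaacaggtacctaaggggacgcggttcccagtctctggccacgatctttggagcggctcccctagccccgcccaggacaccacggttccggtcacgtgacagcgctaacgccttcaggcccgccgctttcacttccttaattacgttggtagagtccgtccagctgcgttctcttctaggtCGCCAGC
Zfp758: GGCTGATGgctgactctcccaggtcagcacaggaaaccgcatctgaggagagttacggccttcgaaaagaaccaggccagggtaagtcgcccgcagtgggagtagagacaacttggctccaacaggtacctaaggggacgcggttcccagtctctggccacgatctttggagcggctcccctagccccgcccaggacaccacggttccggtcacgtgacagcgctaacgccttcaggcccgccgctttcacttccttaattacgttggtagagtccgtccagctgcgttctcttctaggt
Zfp943 read 9.48, 9.38 and 9.58 in B cells at 0 h and 7.83, 7.75 and 7.77 after LPS, and Zfp758 read 9.45, 9.36 and 9.31 and then 7.19, 6.86 and 7.29. Both fell on every array, by 1.70 ± 0.07 and 2.26 ± 0.10, and by 0.41 ± 0.07 and 0.25 ± 0.10 at 4 h in T cells. The next closest pair, Zfp942 and Zfp944 (84.3%), fell by 1.15 and 2.51 after LPS, and no other pair exceeded 62.5%. Zfp52 and Zfp948, whose windows are printed above, shared 50.1% of aligned letters, near the median. A link between promoter identity and change was not tested.

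Promoter windows were found for 149 of the 177 genes and compared with those of 27025 genes in the RefSeq table. Both strands were searched, and N stands for any base. None of the motifs contains another. CACGTG, the E-box that Myc and Max bind, occurred in 16 of the 149 (10.7%) and in 7.2% of all windows, and CCGGAAG, which ETS factors bind, in 30 (20.1%) and 9.1%. The AP-1 motif TGANTCA occurred in 8 (5.4% against 7.9%). The windows held a median of 16 CG dinucleotides, against 7 in all windows, and both CACGTG and CCGGAAG contain CG. CACGTG was found in 6 of 44 windows of genes that rose after LPS (13.6%) and 9 of 74 of those that fell (12.2%). For CCGGAAG these numbers were 11 of 44 (25.0%) and 14 of 74 (18.9%). At 4 h in T cells CACGTG was found in 2 of 31 windows of genes that rose (6.5%) and 8 of 48 of those that fell (16.7%), and CCGGAAG in 7 (22.6%) and 5 (10.4%). The near-identical windows of Zfp943 and Zfp758 both hold CACGTG, and both genes count among those that fell in B and in T cells. Their windows are therefore not independent counts. These shares were not tested. A match is a string of letters and no measured binding site.

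More than 1 probe set named 98 of the 177 genes, and the second brightest gave a check on some of them. It reached 6 in some group for 52 and stayed under 4 in all groups for 33. For Zfp52 it had group means of 6.66, 9.41, 5.22, 8.76 and 7.77 in B cells at 0 h, B cells after LPS and T cells at 0 h, 4 h and 14 h, and for Zfp593 2.77, 6.19, 3.0, 5.70 and 4.28. Both repeat the rises of the brightest probe set. That of Zfp608, with 7.34, 4.23, 3.36, 3.99 and 3.12, repeated the fall after LPS. Its T cell means were all under 4, and the rise at 4 h was smaller than on the brightest probe set. The second probe set of Zfp948 rose after LPS, from 2.26 to 4.20, and lay at the floor of 2.24 in all T cell groups, so its rise in T cells rests on 1 probe set. For Zfp207 the probe sets disagreed: the brightest had group means of 11.08, 11.04, 10.36, 10.48 and 11.21, and the second 12.63, 11.51, 9.32, 8.69 and 7.83, falling where the first rose at 14 h. It was also called lower at 14 h with the mean of all its probe sets. Of the calls on the brightest probe set of genes with a second one, the second gave the same call for 44 of 78 after LPS, 24 of 50 at 4 h, 24 of 49 at 14 h, 10 of 40 between 4 h and 14 h, 33 of 69 between B and T cells at 0 h and 26 of 66 for the difference between responses. Besides Zfp207, opposite calls were made for Zfp24 after LPS, Zfp800 at 4 h, Zfp277 at 14 h, and Zfp277 and Zfp84 between 4 h and 14 h. Between B and T cells at 0 h they were made for 8 genes (Zfp101, Zfp213, Zfp397, Zfp398, Zfp407, Zfp451, Zfp709 and Zfp871), and for the difference between responses for 4 (Zfp101, Zfp266, Zfp397 and Zfp948). Among genes named above, Zfp386 was not called at 14 h on a second probe set of clear signal (-0.95, adjusted p = 0.0673). The second probe sets of Zfp287, Zfp367, Zfp710 and Zfp719 had group means under 4 in every group, at or near the floor, so the loss of their calls says nothing of a change. Of the 177 genes, 17 were read from probe sets marked as matching several transcripts or genes, Zfp593 and Zfp622 among them. Signal from close relatives in those is not separated here.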

How the data were processed

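Expression was measured on 15 arrays, 3 per group. The deposited values are log2 signals that the authors made with GCRMA, a method that corrects background and puts arrays on a common scale (per the submitters' processing notes, version not given in the sources used here). Of all values, 40.1% lie at a floor of 2.24, so a change against a group near it may understate the true change. Of 45101 probe sets, 34958 had 1 gene symbol (34754 matched a RefSeq table by Entrez number, which changed 0 symbols), 932 had several genes and 9211 none, and the last 2 kinds were left out. The brightest probe set was kept for each of 18194 genes, and the 9045 genes with a highest group mean of at least 5 were tested.

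All 15 arrays entered a single limma fit (limma 3.58.1, R 4.3.3) with a mean per group (10 residual degrees of freedom, prior 3.16), with Benjamini-Hochberg adjustment over all genes tested and calls at an adjusted p under 0.05. Errors of changes are standard errors of this fit, and errors of levels are SDs over 3 arrays. The number of arrays limits the precision. The fit was tested on simulated data. Array medians lay between 2.42 and 2.57, and no 2 arrays were identical.

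Named genes were, in each comparison, the 6 called members that rose most and the 6 that fell most without overlap between arrays (4 and 4 between 4 h and 14 h, between cell types and between responses), plus the 10 brightest members, the 5 steadiest, the 3 on each side of the level of 6 and the role lists. Overlap was not asked of the difference between responses. Genes named for opposite calls, for disagreeing probe sets, for a shared promoter or for a place in a run were chosen after their values were seen. The members and lists were chosen with earlier results of these data known. Alternatives were other filters, scalings, probe sets, a replicate block, another prior and leaving out arrays.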

Additional observations from a re-analysis of the deposited data

Results flagged for a closer look

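In 8 Zfp genes the response at 4 h differed between the cell types by the test of the difference itself, given here as the log2 change after LPS in B cells minus that after ConA in T cells. They are the 4 largest differences in each direction among the 177 genes, and 61.6% of the 177 were called in this test against 66.1% of all genes tested. Zfp296 differed by 3.08 ± 0.37, having risen in B cells and stayed near the floor in T cells (0.03). Zfp827 differed by 2.68 ± 0.16, with 2.16 in B cells and -0.52 in T cells. Zfp566 differed by 1.71 ± 0.23, with rises of 2.32 and 0.61. Zfp213 differed by 1.48 ± 0.21, with 1.5 and 0.02. In the other direction, Zfp608 differed by -4.13 ± 0.20, with -2.71 and 1.43, and Zfp810 by -3.13 ± 0.28, with -3.75 and -0.62. Zfp760 differed by -2.60 ± 0.14, with -3.63 and -1.02, and Zfp709 by -2.10 ± 0.21, with -2.49 and -0.39. The cell types received different agents, so cell type and agent cannot be told apart. Zfp296 and Zfp608 were members only through B cells after LPS and at 0 h, so their differences are descriptions.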

How the results depend on the processing

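The largest changes, 60 named by size, kept their direction and their call under the alternatives other than the second brightest probe set (1440 values), and counts of called members stayed within 1.5 times apart from those below. With cyclic loess between arrays, 60 members were higher in B than in T cells at 0 h. The second brightest probe set exists for 98 members, so its counts are smaller by construction: 22 higher and 31 lower after LPS, 14 and 19 at 4 h with ConA, 13 and 25 at 14 h, 5 and 16 between 4 h and 14 h, 24 and 27 between B and T cells at 0 h, and 12 and 20 for the difference between responses. With it Zfp719, near the floor, changed by -0.10 at 14 h (adjusted p = 0.346), and Zfp386 was not called at 14 h (-0.95). Those of Zfp287, Zfp367, Zfp710 and Zfp948 were at or near the floor in T cells. Zfp207, named from the lists, was called lower at 14 h with the mean of all probe sets. Leaving out 1 array at a time gave 44 to 49 higher and 85 to 89 lower after LPS, 31 to 38 and 48 to 59 at 4 h, and 17 to 25 and 57 to 72 at 14 h.

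With the replicate number as a block, 47 rose and 87 fell after LPS, 36 and 56 at 4 h, 19 and 67 at 14 h, 17 and 50 between 4 h and 14 h, 39 and 86 between cell types, and 28 and 79 for the difference between responses. Of 30 same-numbered pairs over 10 pairs of groups, 2 correlated above 0.1 (range -0.46 to 0.24). With so few arrays per group, these correlations cannot decide whether the replicate numbers pair the samples. The level of 6 kept 132 genes with the mean of all probe sets, 176 with equal array medians and 193 with cyclic loess.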
